A study of Mus musculus with 2 samples.

Results

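The blood vessel lining of the kidney was followed through 10 endothelial cell genes: Pecam1, Cdh5, Kdr, Tek, Tie1, Cd34, Ramp2, Emcn, Vwf and Eng. They were taken by gene name from the 20868 distinct probes of the array that were not controls, which gave 11 probes, 1 for each gene and a second for Vwf. All 10 genes passed the filter on dim spots and were among the 18357 genes tested. Whole kidney RNA labelled Glis2 KO was compared with kidney RNA labelled Glis2 WT on 2 two-colour Agilent arrays, each of which held both. The KO RNA carried the dye Cy3 on replicate 1 and Cy5 on replicate 2. The submitters describe pools of 3 kidneys, animals at postnatal days 25 and 60, and 2 independent experiments with duplicate arrays. The labels do not give the age or sex behind either array, the strain, or how the Glis2 allele was altered, and they do not say whether the arrays are the separate experiments or duplicates of the same pools. The p-values therefore rest on the spread between these 2 arrays, taken largely from all genes together, and that spread may be technical.

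Endothelial cells line every vessel of the kidney, from the glomerular capillaries that filter the blood to the peritubular capillaries around the tubules. They hold together through junction proteins such as VE-cadherin, and they are kept alive and quiet by vascular endothelial growth factor (VEGF) acting on Kdr and by angiopoietins acting on Tek. Adrenomedullin, a peptide that widens vessels and tightens their barrier, reaches them through a receptor that Ramp2 helps to form. In bulk RNA, fewer or more cells of a type and less or more RNA per cell cannot be told apart.

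In each channel 94.6% to 97.4% of the spots exceeded background clearly, and the median ratio of signal to local background was 4.06 to 5.18. The log2 ratios of the 2 arrays correlated across all genes with a Pearson r of 0.587, where genes are not independent replicates. Glis2 itself had log2 ratios (KO over WT) of 0.32 and 0.16, with a limma adjusted p of 0.328. The sources used here do not say whether the Glis2 probe lies in the altered part, so its level cannot serve as a check of the labels, and each direction refers to the RNA labelled KO. Every tested probe of the 10 endothelial genes was well above background in both genotypes on both arrays, and 0 of their spots were saturated.

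Ramp2 and Cd34 rose in Glis2 KO kidneys, by 1.63-fold and 1.56-fold, while the classical receptors and junction genes of the endothelium did not pass the test. Kdr, Tek, Tie1, Cdh5 and Pecam1 were also dimmer, with net signals of 84.5 to 431.4, against 1155.6 to 2294.1 for Cd34 and Ramp2. The offset used in processing makes ratios of dim spots too small. With the scanner's ratios Tie1 went from 0.27 to 0.46 and Cdh5 from -0.11 to -0.17. Kdr, Tek and Pecam1 then had 0.00048, 0.0065 and -0.29, and none of these genes was called. Of the 10 genes, limma called 2 higher and 0 lower in KO at an adjusted p under 0.05, and 8 were not called. The test called 5.01% of all genes, 3.79% higher and 1.21% lower. An unadjusted p under 0.05 in limma was reached by 3018 of the 18357 genes tested and by 3 of the 10. Kdr, the main VEGF receptor, and Tek, the angiopoietin receptor, had mean log2 ratios of 0.0050 and 0.0064. The 10 genes had median log2 ratios of 0.10 and 0.26 on replicates 1 and 2, against -0.0030 and 0.024 over all genes tested. On both arrays the log2 ratio was above 0 for 6 of the 10 (31.9% of all genes), below 0 for 1 (28.9%), and of opposite sign on the 2 arrays for 3 (39.3%). These counts describe the list and were not tested.

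**Figure D1:**
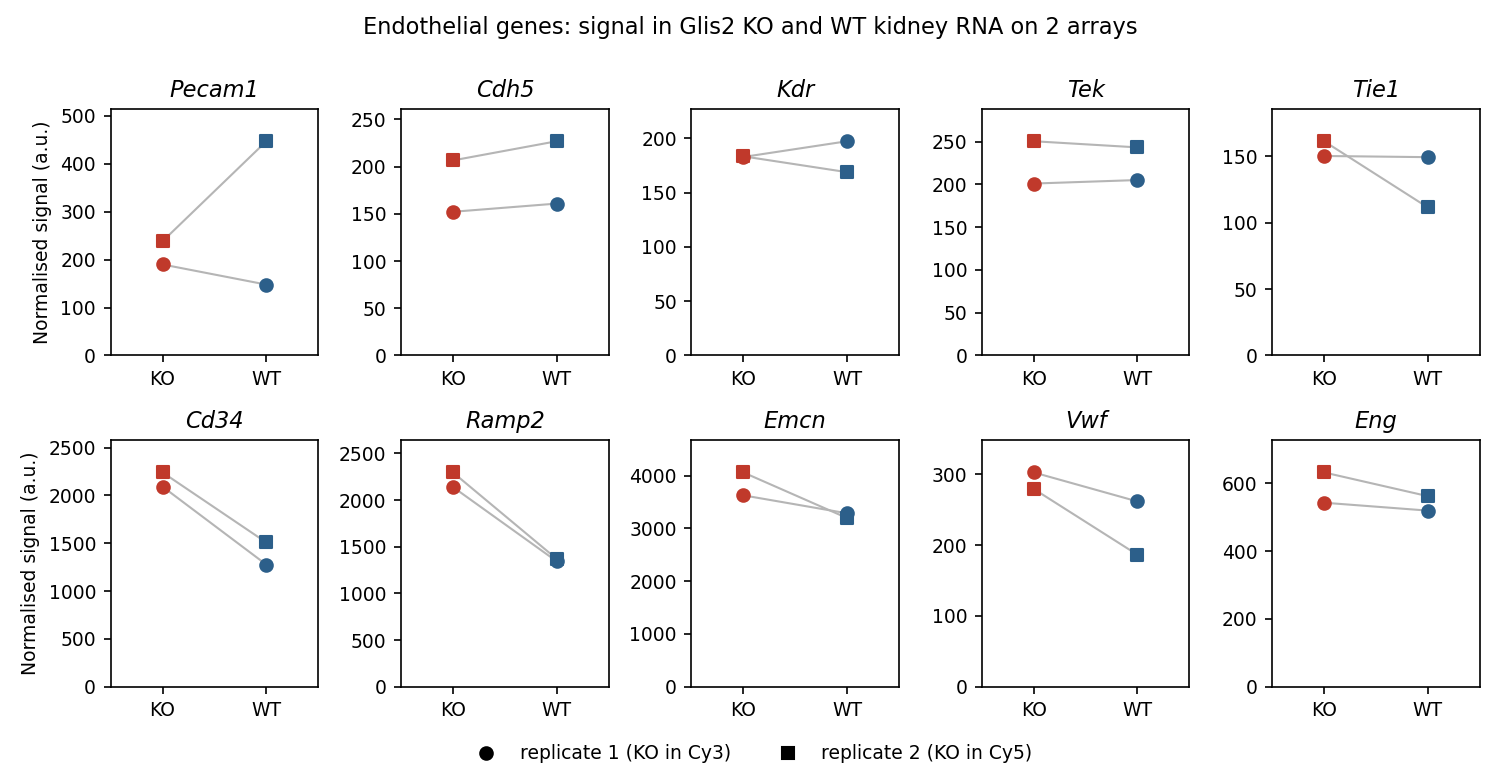
Normalised signal (vertical axes, arbitrary units, each from 0) of the 10 endothelial genes in KO (left) and WT (right) kidney RNA; circles are replicate 1, squares are replicate 2, and lines join the channels of an array. Cd34 and Ramp2 lie higher in KO on both arrays, and Pecam1 goes opposite ways on the 2 arrays.

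Ramp2 encodes a small membrane protein that pairs with the receptor Calcrl and makes it a receptor for adrenomedullin. Its normalised signal was 2139.9 and 2296 in KO RNA on replicates 1 and 2, against 1343 and 1369 in WT RNA. Both KO values lay above both WT values, and the WT values were close to each other. With 2 values per genotype, lack of overlap here and below only describes the signals. Its share over all genes was not counted. The log2 ratios were 0.67 and 0.75, with a mean of 0.71 ± 0.11 (moderated SE, n = 2), a 95% interval from 0.46 to 0.96 and an adjusted p of 0.00961 in limma. The scanner software's own p within each array was 4.85e-05 on replicate 1 and 1.42e-05 on replicate 2. The gap between the arrays, 0.07 log2 units, was at least as large as that of 24.9% of all genes.

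Calcrl, the partner of Ramp2, rose in KO, with a log2 ratio of 0.49 ± 0.11 (moderated SE, n = 2; adjusted p = 0.0441 in limma), and was called in 4 of 10 other processing settings. Its signal was 685.7 and 739.3 in KO RNA and 479.2 and 538.0 in WT RNA, so that the groups did not overlap. Ramp3 and Ramp1, which pair with the same receptor, had mean log2 ratios of 0.36 and 0.45 and adjusted p of 0.128 and 0.0745, and neither was called. The ligand genes stayed closer to 0: Adm, which encodes adrenomedullin, had 0.081, and the calcitonin gene-related peptide genes Calca and Calcb had 0.16 and 0.060. Of the 6 tested ligand and receptor genes of this system other than Ramp2, limma called 1 higher and 0 lower (3.79% and 1.21% of all genes). The list median was 0.26.

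Cd34 encodes a sialomucin of the capillary surface that is also carried by blood progenitor cells and by stromal cells of fat and connective tissue. Its signal was 2092 and 2240.4 in KO RNA, against 1276 and 1508 in WT RNA. The groups did not overlap, which also held for Emcn below, a gene that was not called. The log2 ratios were 0.71 and 0.57, with a mean of 0.64 ± 0.11 (moderated SE, n = 2), a 95% interval from 0.39 to 0.90 and an adjusted p of 0.0160 in limma. The calls of Ramp2 and Cd34 depended on the processing, while their sizes changed little. Settings of filter, probe choice or prior could not move these sizes, and the authors' deposited values repeat the scanner's ratios. Over 10 other settings the log2 ratio lay between 0.69 and 0.74 for Ramp2 and between 0.63 and 0.67 for Cd34, but each was called in 5 of the 10, and the largest adjusted p was 0.188 for Ramp2 and 0.207 for Cd34.

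Endothelial genes share control by ETS family transcription factors, whose core recognition letters are GGAA. RefSeq promoter sequences of build GRCm38.p6 were on hand for 6 of the 10 genes. The 250 bases before the transcription start are shown for Cd34, which rose, and for Kdr and Tek, the receptors with mean ratios nearest to 0, a choice made with their ratios known. Capitals mark GGAA on either strand, which reads TTCC on the strand printed.
The Cd34 window is chr1:194938571-194938820, plus strand.
Cd34: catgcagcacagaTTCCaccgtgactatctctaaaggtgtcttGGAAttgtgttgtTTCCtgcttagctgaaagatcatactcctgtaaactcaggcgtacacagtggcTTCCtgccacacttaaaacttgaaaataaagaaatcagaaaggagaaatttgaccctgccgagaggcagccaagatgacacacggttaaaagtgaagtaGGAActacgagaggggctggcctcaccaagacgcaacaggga
The Kdr window is chr5:75978456-75978705, minus strand.
Kdr: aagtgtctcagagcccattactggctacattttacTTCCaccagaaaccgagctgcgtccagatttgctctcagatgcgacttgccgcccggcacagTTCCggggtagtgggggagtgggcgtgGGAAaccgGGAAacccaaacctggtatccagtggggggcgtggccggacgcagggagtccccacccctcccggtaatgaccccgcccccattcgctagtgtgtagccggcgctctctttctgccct
The Tek window is chr4:94739039-94739288, plus strand.
Tek: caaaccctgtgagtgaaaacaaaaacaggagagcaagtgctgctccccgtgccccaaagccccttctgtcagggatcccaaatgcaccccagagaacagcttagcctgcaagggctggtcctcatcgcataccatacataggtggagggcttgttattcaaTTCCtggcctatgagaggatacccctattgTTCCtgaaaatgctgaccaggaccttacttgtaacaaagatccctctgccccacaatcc
GGAA occurred 5 times in the Cd34 window, 4 times in that of Kdr and 2 times in that of Tek. The windows of the other 3 genes, none of them called, held it 7 times for Tie1, 4 times for Emcn and 3 times for Eng, so that Cd34 did not have the most. Of all promoters, 93.4% of the 32851 windows of that length hold these letters. The motif CAGGAA, a longer form that includes GGAA, occurred 2 times for Cd34, 0 times for Kdr, 2 times for Tek, 1 time for Tie1, 2 times for Emcn and 0 times for Eng (25.7% of all windows). CCGGAA, which also includes GGAA, occurred 0 times for Cd34, 1 time for Kdr and 0 times for each of the other 4 genes (12% of all windows). The GC box GGGCGG occurred 0 times for Cd34, 2 times for Kdr and 0 times for each of the other 4 genes (32.7% of all windows). Both strands were searched, and these matches describe the letters of these windows only.

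Emcn and Vwf were higher in KO on both arrays without passing the test. Emcn encodes endomucin, a sialomucin of capillary and venous endothelium that keeps leukocytes from attaching. Its signal was 3626 and 4060.0 in KO RNA and 3285 and 3196 in WT RNA, and the groups did not overlap. The log2 ratios of 0.14 and 0.35 averaged 0.24 (95% interval from -0.02 to 0.50, adjusted p = 0.336 in limma). Vwf encodes von Willebrand factor, the large blood protein that tethers platelets to damaged vessel walls. Its brighter probe had a signal of 302.6 and 279.3 in KO RNA and 261.6 and 186.3 in WT RNA. The lower KO value exceeded the higher WT value by a small margin, and replicate 2 carried most of the difference. The log2 ratios of 0.21 and 0.58 averaged 0.40 ± 0.13 (moderated SE, n = 2), with an unadjusted p of 0.0144 and an adjusted p of 0.154 in limma. The second Vwf probe was well above background on only 1 of the 2 arrays in each genotype, and it was not tested. It had a signal of 85.3 and 68.1 in KO RNA and 90.0 and 67.8 in WT RNA, with log2 ratios of -0.078 and 0.0071, so the 2 Vwf probes gave different values. Of the 10 other settings, 1 called Emcn and Vwf higher, a robust prior that follows intensity, at limma adjusted p of 0.0352 and 0.0236. That setting called 1540 of all 18357 genes higher and 932 lower, against 696 and 223 in the reported fit.

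Vwf and Pecam1 are also made by platelets and their precursors. Of 9 platelet and megakaryocyte markers, limma called 1 higher and 0 lower (3.79% and 1.21% of all genes). The higher one was Pf4, with a log2 ratio of 1.38 (1.08 and 1.69 on the 2 arrays). Ppbp, another platelet chemokine gene, had -0.62 and was not called, and Gp1ba, a platelet receptor for Vwf, had -0.23 and was not called. The summed signal of the 9 markers was 2334 and 2498 in KO RNA and 2418 and 2355 in WT RNA. The summed levels overlapped between the genotypes, and the list median log2 ratio was -0.054. The part of platelets in the Vwf and Pecam1 values was not tested.

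None of the 3 receptor tyrosine kinases passed the test. Kdr, the receptor through which VEGF drives endothelial growth, had a signal of 182.8 and 183.4 in KO RNA and 197.3 and 168.8 in WT RNA. The KO values lay between the WT values, and the log2 ratios of -0.11 and 0.12 had opposite signs, with a 95% interval of the mean from -0.26 to 0.27. Tek, which binds the angiopoietins, had a signal of 201.1 and 250.6 in KO RNA and 205.2 and 243.4 in WT RNA. Each array gave nearly equal signal in both genotypes, with log2 ratios of -0.029 and 0.042, and the 95% interval ran from -0.24 to 0.25. In folds, KO over WT, these intervals ran from 0.835 to 1.21 for Kdr and from 0.846 to 1.19 for Tek. Both genes were dim and the offset makes such ratios too small, so these intervals are not firm bounds on the change. Tie1, a relative of Tek that modulates it, had a signal of 150.3 and 161.4 in KO RNA and 149.4 and 111.5 in WT RNA. It was level on replicate 1 and higher in KO on replicate 2, at log2 ratios of 0.0087 and 0.53, and was not called (adjusted p = 0.401 in limma). The gap between arrays was at least as large for Tie1 as for 94.3% of all genes, and Tie1 had a net signal over local background of 120.4 and 99.8 in KO RNA and 84.5 and 92.9 in WT RNA.

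Of 9 VEGF ligands, other receptors and co-receptors, limma called 0 higher and 1 lower (3.79% and 1.21% of all genes). The lower one was Vegfa, the main VEGF ligand of the kidney, made by podocytes and tubules, with a log2 ratio of -0.53 ± 0.11 (moderated SE, n = 2; adjusted p = 0.0413), called in 4 of the 10 other settings. Its signal was 537.3 and 579.5 in KO RNA, against 834.2 and 775.1 in WT RNA, so that all KO values lay below all WT values. Flt1, a VEGF receptor that acts largely as a decoy, had -0.21 and was not called, and Vegfd, a ligand of lymphatic vessels, had 0.53 with an adjusted p of 0.0508. Of the 4 angiopoietin system genes, the ligand genes Angpt1 and Angpt2 had 0.14 and -0.11 and were not called. Ptprb, a phosphatase that holds down Tek signalling, was called higher at 0.70 (adjusted p = 0.0112), although a second Ptprb probe gave -0.25, so the rise holds for 1 of its 2 probes.

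**Figure D2:**
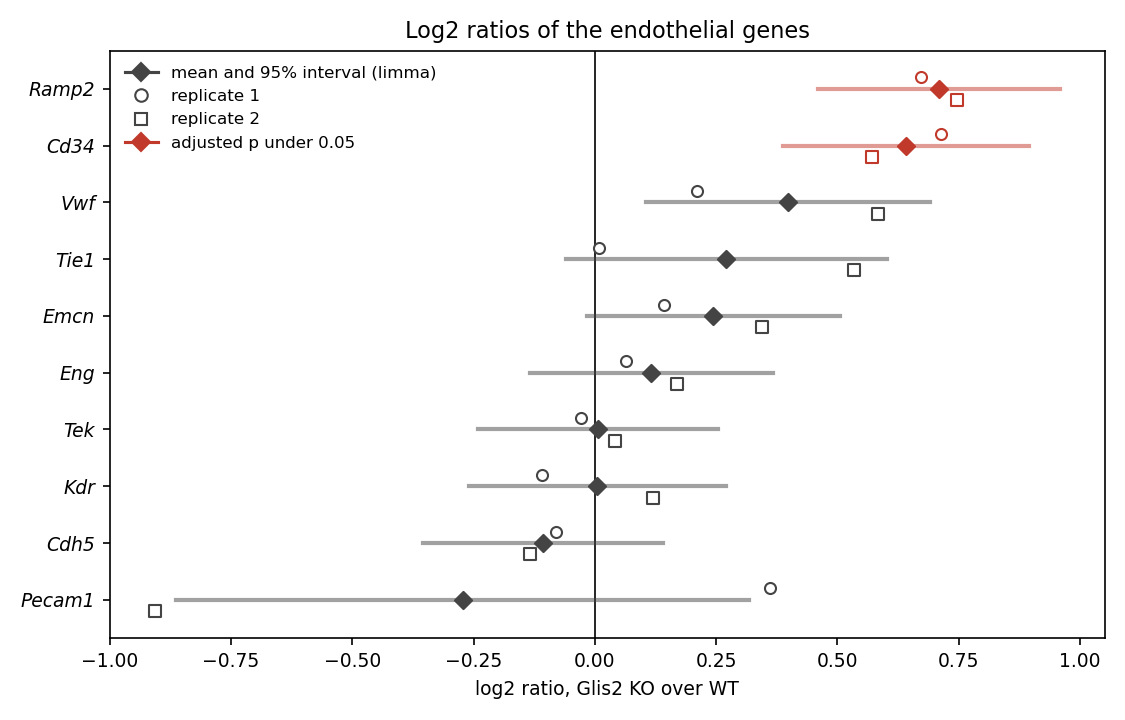
Log2 ratio of Glis2 KO over WT (horizontal axis) for the 10 endothelial genes (rows, by mean); diamonds are means, bars the 95% intervals of limma, open circles replicate 1 and open squares replicate 2, with called genes in red. Only the bars of Ramp2, Cd34 and Vwf lie wholly above 0, and Pecam1 has the widest bar.

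Eng encodes endoglin, a co-receptor for bone morphogenetic proteins and transforming growth factor beta. Its signal was 542.5 and 631.8 in KO RNA and 519.2 and 561.8 in WT RNA. KO was slightly higher on each array, and across arrays the groups overlapped. The log2 ratios of 0.063 and 0.17 averaged 0.12 with a 95% interval from -0.13 to 0.37. Of 11 tested genes of its signalling partners, limma called 2 higher and 0 lower (3.79% and 1.21% of all genes). Tgfbr2, the type II receptor for transforming growth factor beta, which many cell types carry, rose by 0.80 ± 0.11 (log2, moderated SE, n = 2; adjusted p = 0.00615), and Id3, a target gene of the pathway, by 0.69 (adjusted p = 0.0129). Over the 10 other settings Tgfbr2 was called in 6 and Id3 in 5. The targets Id2 and Id1 had -0.18 and -0.025 and were not called, and Id1 was chosen after its values were seen. Acvrl1, the endothelial type I receptor that works with endoglin, had 0.46 and an adjusted p of 0.0682. Smad6, an inhibitor within the pathway, had 0.28 without a call. The list median was 0.013 on replicate 1 and 0.40 on replicate 2.

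Cdh5 encodes VE-cadherin, which joins endothelial cells to each other. Its signal was 152.1 and 206.5 in KO RNA and 160.8 and 226.8 in WT RNA. KO was slightly lower on each array, at log2 ratios of -0.080 and -0.13, and across arrays the groups overlapped. The mean of -0.11 had a 95% interval from -0.35 to 0.14 and an adjusted p of 0.680 in limma. Of the 5 genes for its cytoplasmic partners limma called 0 in either direction (5.01% of all genes), and 0 had an unadjusted p under 0.05. Among them Ctnnb1 (beta-catenin) had 0.011 and Ctnnd1 (p120 catenin) had -0.28.

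Pecam1, an adhesion molecule of endothelial junctions that leukocytes and platelets also carry, had the widest gap between arrays of the 10 genes. Its signal was 189.8 and 238.2 in KO RNA, against 147.8 and 446.8 in WT RNA. KO was the higher on replicate 1, with a log2 ratio of 0.36, and the lower on replicate 2, with -0.91. Before normalisation the Cy3 net signal was 163.5 and 431.4, and the Cy5 net signal was 85.0 and 179.2. Cy3 was thus the brighter dye on both arrays, whichever genotype carried it. The net Cy3 signal also exceeded the Cy5 signal on both arrays for Cdh5, Kdr and Tek. The gap of 1.27 log2 units between arrays was at least as large as that of 99.9% of all genes. The mean of -0.27 had a 95% interval from -0.86 to 0.32 and an adjusted p of 0.659 in limma, and no direction can be read for Pecam1. The scanner software's own p was 0.0597 on replicate 1 and 0.00158 on replicate 2, for ratios of opposite direction. Slide, scan and dye orientation cannot be told apart here.

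**Figure D3:**
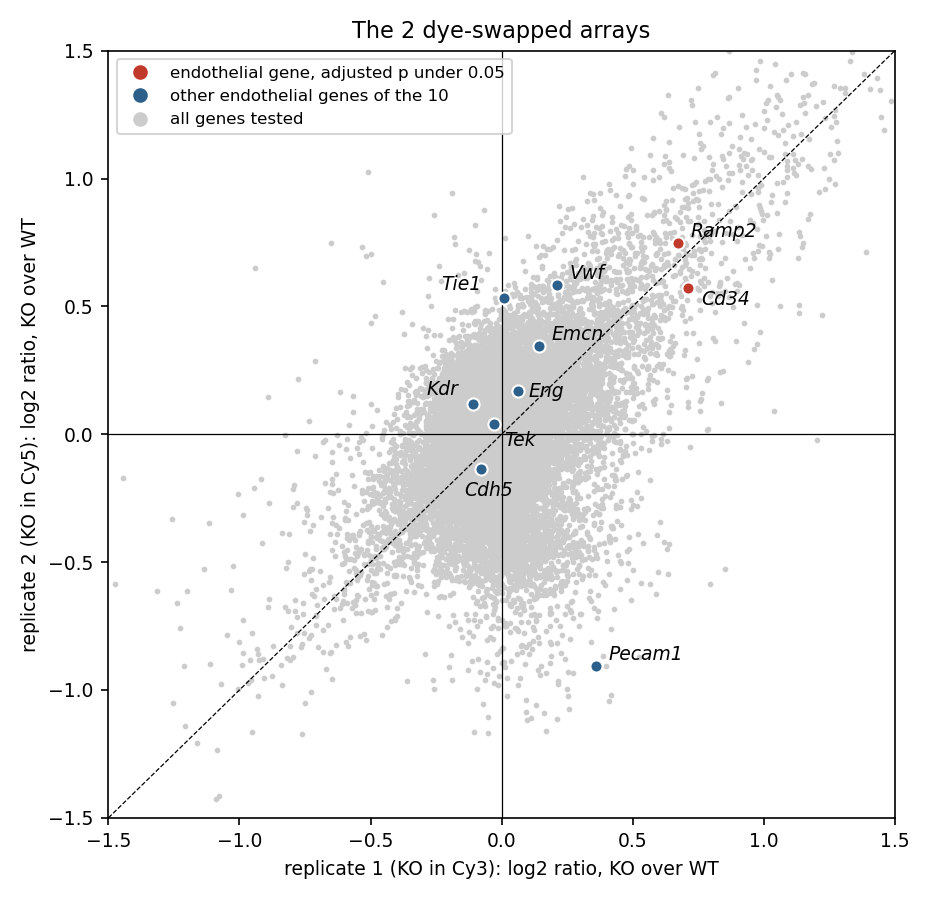
Log2 ratio of Glis2 KO over WT on replicate 1 (horizontal axis) against replicate 2 (vertical axis) for all genes tested within the axes (grey) and the 10 endothelial genes (red where called, blue otherwise); the dashed line marks equal ratios. Ramp2 and Cd34 lie near the line at the upper right, and Pecam1 lies far from it, at 0.36 and -0.91.

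Among 33 other tested genes of endothelial cells limma called 4 higher and 0 lower (3.79% and 1.21% of all genes). The other 29 were not called. The list median was 0.10 and 0.19 on replicates 1 and 2. Thbd, the thrombomodulin that makes the vessel surface anticoagulant, rose by 0.95 ± 0.11 (log2, moderated SE, n = 2; adjusted p = 0.00303), and Cd93, a surface lectin of endothelial and myeloid cells, by 0.69 (adjusted p = 0.0119). Tm4sf1, a small membrane protein of vessels, rose by 0.60, and Ptprb stands above. Egfl7, which encodes a protein that endothelial cells secrete, had 0.46 (adjusted p = 0.0699), the capillary diaphragm gene Plvap 0.31 and the tight junction gene Cldn5 0.32, and these were not called. On both arrays the log2 ratio was above 0 for 20 of the 33 (31.9% of all genes) and below 0 for 3 (28.9%). An unadjusted p under 0.05 in limma was reached by 11 of the 33, against 3018 of all 18357 genes tested. Over the 10 other settings Ptprb was called in 4, Cd93 and Tm4sf1 in 5, and Thbd in 8. Of 12 genes of the Notch pathway and of artery or vein identity limma called 0 (5.01% of all genes). In that list 1 had an unadjusted p under 0.05. Of 4 lymphatic genes limma called 0, also with 1 at an unadjusted p under 0.05.

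Of 5 tested adhesion genes of activated endothelium, limma called 3 higher and 0 lower (3.79% and 1.21% of all genes). The 3 were Vcam1 (log2 ratio 1.79), the membrane-bound chemokine gene Cx3cl1 (1.33) and Icam1 (1.32). Each of these is also made by other kidney or immune cells. A second Icam1 probe gave -0.039, so the rise of Icam1 holds for 1 of its 2 probes. Selp, the P-selectin of endothelium and platelets, had -0.067, and Ackr1, a chemokine-binding protein of venules, had -0.02; neither was called.

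Markers of other kidney cells moved in both directions in the same comparison. Their counts of calls stand beside 3.79% of all genes called higher and 1.21% called lower. Of 7 tested fibroblast and stromal markers limma called 7 higher, with a summed signal of 9437 and 10055 in KO RNA and 2927 and 2985 in WT RNA. Of 8 adipocyte markers it called 7 higher, with sums of 36650 and 35162 in KO RNA and 11004 and 10935 in WT RNA. Of 9 macrophage markers it called 7 higher, with sums of 13565 and 14475 in KO RNA and 5171 and 5554 in WT RNA. Of 5 pan-leukocyte markers it called 4 higher, with sums of 3558 and 3576 in KO RNA and 1385 and 1265 in WT RNA. The summed signal of the 10 endothelial genes was 9579 and 10548 in KO RNA and 7546 and 8018 in WT RNA. In each of these 5 lists both KO sums lay above both WT sums. The endothelial sum comes mostly from its brightest genes, Emcn, Ramp2 and Cd34, and 8 of the 10 genes were not called. It therefore does not show a rise of that list as a whole. Other markers went the opposite way. Of 3 tested erythroid markers, which mark red blood cells and their precursors, limma called 3 lower, with a median log2 ratio of -0.77 and sums of 42469 and 50780 in KO RNA and 83128 and 75435 in WT RNA. Of 7 proximal tubule markers it called 1 lower, the phosphate transporter gene Slc34a1 (-0.61), and 0 higher, and 7 were below 0 on both arrays. Their median was -0.40, with sums of 46601 and 50984 in KO RNA and 65732 and 65432 in WT RNA. Of 4 markers of the more distal tubule limma called 0, with 1 at an unadjusted p under 0.05. Array signals have no true zero, so no marker can be given as absent. The part of these cells in the values of Cd34, Ramp2, Vegfa and the adhesion genes was not tested.

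**Figure D4:**
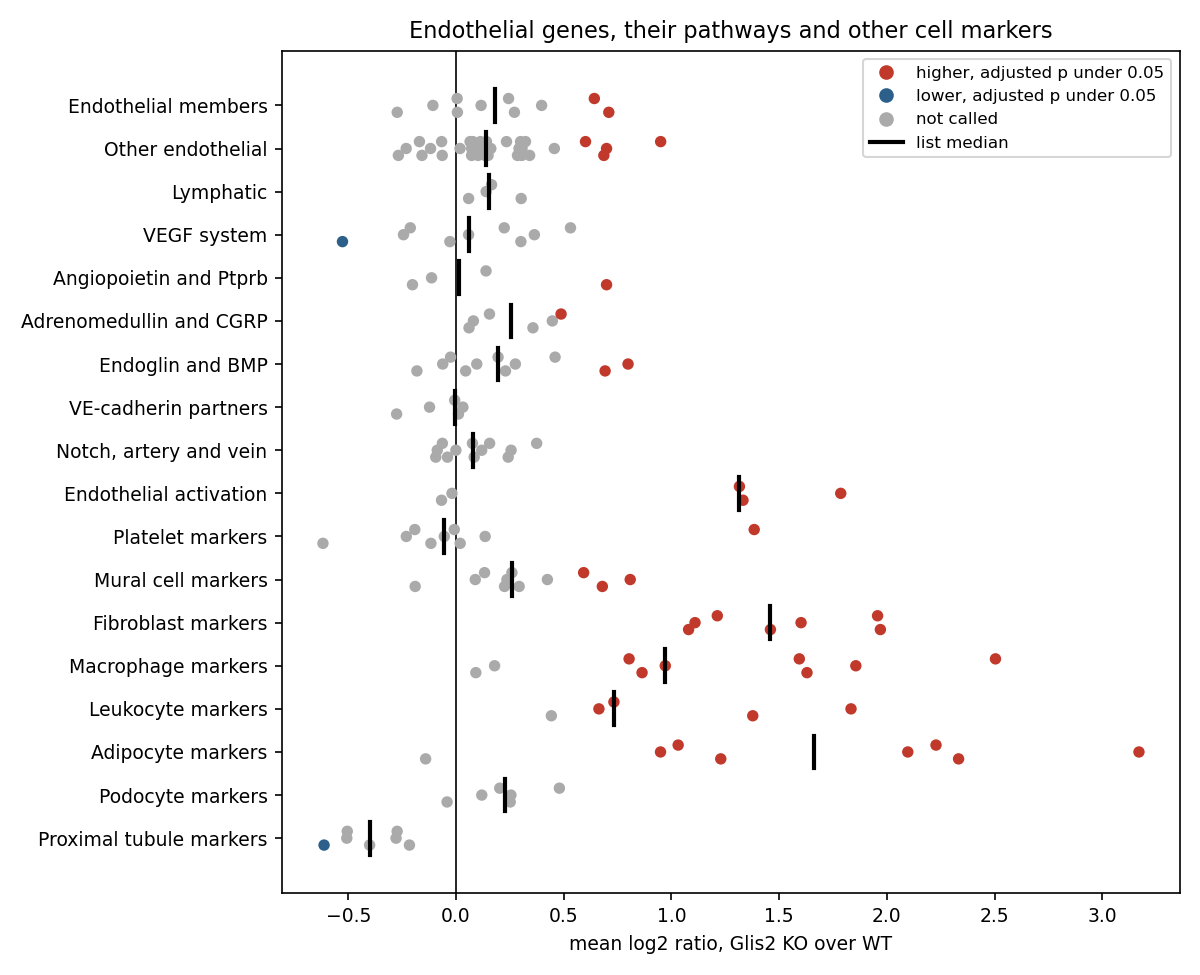
Mean log2 ratio of Glis2 KO over WT (horizontal axis) of each tested gene (points) by list (rows), red where called higher, blue where called lower and grey where not called, with black bars for list medians. The 10 endothelial genes have a median of 0.18, against 1.32 for the activation list, 1.46 for fibroblast markers and 1.66 for adipocyte markers.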

How the data were processed

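RNA of pooled kidneys was amplified from 500 ng of total RNA and labelled with Cy3 or Cy5, and 750 ng of each cRNA was hybridised for 17 hours, per the labels. Agilent Feature Extraction 8.1.1.1 wrote the mean and background intensity of each spot, per the file headers. It also wrote a log10 ratio (Cy5 over Cy3) after its own background subtraction, detrending and dye normalization, and a p-value from its error model, per the file headers. The authors' deposited value table holds that log10 ratio with opposite sign (all 22393 features, column median 0).

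With R 4.3.3 and limma 3.58.1, mean signals were corrected by normexp (offset 50) and normalised by loess within each array, control spots weighted 0. Replicate 1 was turned to KO over WT. Controls and 88 outlier spots were dropped, as were probes that did not exceed background clearly in KO on both arrays or in WT on both. The brightest probe stood for its gene. limma's moderated test (lmFit, eBayes) covered 18357 genes, with 1 residual and 6.58 prior degrees of freedom, Benjamini-Hochberg adjusted. SEs and 95% intervals are limma's, with the spread drawn towards that of all genes. Precision is limited by having 2 arrays. Signals of single channels were also brought to a common scale between arrays (Aquantile). The offset of 50 remains in them and makes ratios of dim spots too small. Probes were named through the accession (14302 spots), the current symbol (2439) or an older symbol (2300), with a table of genes of GRCm38.p6, and 2277 spots kept the file's name. Only the final fit was run on simulated ratios, drawn from the spread that the fit itself assumes. The direction of the ratio was checked by making spots brighter in KO. The dye of KO was taken from the labels there too, so this cannot check the labels themselves. Filters and probe choice were not simulated. The array files name no genome build.

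The 10 genes and the gene lists were chosen with earlier results of these data known. Named genes were the 10, called list members, up to 6 others per list and Glis2. Lists are described by counts and medians, with no test. Some list genes have no probe here or were left out by the filters. Alternatives covered background correction, offset, normalization, the scanner's ratios, filters, probe choice and the prior. A result on a withheld item is not reported here.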

Additional observations from a re-analysis of the deposited data

How the results depend on the processing

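Ramp2 and Cd34 were the 2 endothelial genes called higher. They kept that call without background correction, without the filter on dim spots, with both channels above background, with the mean of all probes and with a trended robust prior. Neither was called with plain subtraction (Ramp2 0.72, Cd34 0.65), offset 16 (0.72 and 0.65), median centring (0.69 and 0.63), the scanner log ratio (0.74 and 0.67) or the deposited value table (0.74 and 0.67). In these 5 settings limma called 0 of the 10 genes, with 2 or 3 at an unadjusted p under 0.05. Between 2116 and 2687 of the 18357 genes tested reached that p in them. The value table repeats the scanner's ratios, so these 2 settings are not separate outcomes. The trended robust prior called 4, adding Emcn (0.24) and Vwf (0.40). Under median centring Kdr turned to -0.074 and Tek to -0.027; neither was called in any of the 10 settings. The other 8 genes kept their sign in all 10 settings, although the settings of filter, probe choice and prior left these ratios unchanged. Over all genes the calls numbered 696 higher and 223 lower (75.7% higher). Plain subtraction gave 204 and 24 (89.5%), offset 16 gave 302 and 56, median centring gave 235 and 48, and the trended robust prior gave 1540 and 932 (62.3%). With the scanner log ratio or the value table it called 0 and 0, with 2521 genes at an unadjusted p under 0.05. Of 91 related endothelial genes, each counted once, 11 were called higher and 1 lower; offset 16 left 6 and 0, median centring 5 and 0, and the scanner log ratio 0 and 0 (24 at an unadjusted p under 0.05). The causes were not tested. With 1 array left out there is a value and no test: 0.67 to 0.75 for Ramp2, 0.57 to 0.71 for Cd34 and -0.91 to 0.36 for Pecam1. No paired analysis was possible because none remains beyond the reported test, which is itself paired and uses the KO over WT ratio within each array. The second Vwf probe was too dim to be tested.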

Other observations

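Cells that sit beside the capillaries were also on the arrays. Of 11 markers of pericytes and smooth muscle limma called 3 higher and 0 lower (3.79% and 1.21% of all genes). Called were the contractile gene Tagln (log2 ratio 0.81, with 0.65 and 0.96 on the 2 arrays) and the growth factor receptor gene Pdgfrb (0.68). The smooth muscle actin gene Acta2 was the third (0.59, with 0.81 and 0.38). The summed signal of the 11 markers was 15417 and 16054 in KO RNA and 10410 and 10542 in WT RNA. The smooth muscle genes Cnn1 (0.42) and Myh11 (0.29) and the pericyte genes Cspg4 (0.23) and Abcc9 (-0.19) were not called. The log2 ratio was above 0 on both arrays for 9 of the 11 markers (31.9% of all genes). It was below 0 on both for 1, Abcc9 (28.9%). Of 6 podocyte markers limma called 0 (5.01% of all genes), with 2 at an unadjusted p under 0.05 and a list median of 0.23. Synpo, a gene of the podocyte cytoskeleton, had the largest value of these at 0.48 (adjusted p = 0.0520), and a second Synpo probe gave 0.11.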
